A study of Mus musculus with 11 samples.

Results

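Cullin-RING ubiquitin ligases were examined in the quadriceps of mice losing weight to a colon tumor, through the transcripts of the cullins themselves and of their F-box and kelch adaptors. The genes were taken by symbol: every gene on the array whose symbol began with Fbxo, Fbxl, Fbxw, Klhl or Kbtbd, or was Cul with a number, except Fbxo32, Fbxo30, Fbxo31 and Fbxo40. Of 19057 named genes on the array, 116 met this rule, and 222 of the 34885 probes with a single gene symbol belonged to them. Cul4a and Cul4b carry a letter after the number and were counted in, and without them 114 genes remained. Of the 116 genes, 74 were detected well enough to be tested, against 10134 tested genes in all.

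Expression was measured on MouseWG-6 v2.0 BeadChips, 1 array per mouse, in quadriceps RNA of 11 female CD2F1 mice aged 5-6 weeks by the labels. Tumor-bearing mice received colon-26 (C26) adenocarcinoma cells under the skin, a transplanted line whose growth drives loss of fat and muscle. Severe cachexia (4 mice) was sampled at about 15% weight loss, moderate cachexia (3 mice, labelled early cachexia) at about 10% weight loss, and the 4 control mice, labelled normal, carried no tumor. The label fields and the methods name different vendors for the mice and different sites for the injection, and neither difference was resolved here. Mice are called below by the numbers in the column names of the signal table, since nothing ties those numbers to the ones in the sample titles. The 4 control mice serve both comparisons, so the severe and moderate differences from control are not independent of each other.

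A cullin is a long scaffold protein that holds a RING subunit, which brings in the enzyme loaded with ubiquitin, at one end and a substrate adaptor at the other. F-box proteins reach Cul1 through the linker Skp1, and most kelch proteins carry a BTB domain that binds Cul3 directly, with the kelch propeller holding the substrate. The small protein NEDD8 switches a cullin on, and the COP9 signalosome takes NEDD8 off again. In skeletal muscle several kelch proteins are known as sarcomere proteins, and variants in the human genes of Klhl40, Klhl41 and Kbtbd13 can cause nemaline myopathy.

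Levels are given as log2 signal after background correction and quantile normalization, so a difference of 1 is a doubling. A gene was called changed at a Benjamini-Hochberg adjusted p under 0.05 in limma, fitted to all 10134 genes and all 11 arrays. The lowest log2 level among detected probes was between 4.82 and 4.91 on the severe arrays, 4.87 and 4.94 on the moderate arrays and 4.80 and 4.95 on the control arrays. All 9 skeletal muscle markers that were tested were present and none was called changed in either stage. They were very bright, at log2 levels of 13.23 to 14.76. Whether probes so bright could have shown a change in muscle content was not tested. Of 9 tested macrophage markers 6 were higher in each stage. Of 6 fibroblast markers 3 were lower in each stage, but severe mouse 11 (median of the list 0.01 over the control mean) and moderate mouse 9 (-0.38) lay near the controls, whereas the other 5 tumor-bearing mice lay at -1.86 to -0.84. Severe mouse 11 also correlated less with its nearest severe array (r = 0.978) than any other array did with its nearest one of the same group (r = 0.981 to 0.992). Of 6 adipocyte markers 3 were lower in severe and 4 in moderate cachexia, with the median of the list at -1.56 to 0.28 over the control mean in severe mice, -1.30 to -1.12 in moderate mice and -0.30 to 0.38 in control mice. Of 3 neutrophil markers 2 were higher in severe and 0 in moderate cachexia, of 3 red blood cell markers 1 and 0, and of 6 endothelial markers 1 and 2. The macrophage list stood at 0.46 to 1.65 over the control mean in severe and 0.76 to 1.03 in moderate mice, against -0.21 to 0.14 in control mice. The part of these shifts in the results that follow was not tested, and in whole muscle fewer cells of a type and less RNA per cell cannot be told apart.

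In severe cachexia limma called 19 of the 74 tested members (25.7%), where 33.3% of all tested genes were called. Of these members 9 were higher and 10 lower, beside 15.6% of all genes higher and 17.8% lower. In moderate cachexia 41 of 74 were called (55.4%) against 41.1% of all tested genes. Here 20 members were higher and 21 lower, beside 18.9% of all genes higher and 22.2% lower. Directly between severe and moderate muscle 10 of 74 differed (13.5%) against 6.98% of all tested genes, 4 of them higher in severe muscle (3.17% of all genes) and 6 lower (3.81%). The share of members called was below that of all genes in severe cachexia and above it in the other comparisons, with no test made of these shares. The median log2 difference over the 74 members was 0.03 in severe and 0.06 in moderate cachexia, beside 0.00 and -0.03 over all tested genes.

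The levels of the groups did not overlap for 22 of the 74 members between severe and control muscle, where the same held for 32.3% of all tested genes. They did not overlap for 41 members between moderate and control muscle (47.7% of all genes) and for 20 between severe and moderate muscle (20.1%). Among the 66 members detected on all 11 arrays, 17 were called in severe cachexia (33.7% of all genes so detected), 36 in moderate cachexia (41.1%) and 10 between the stages (7.16%). The other 8 tested members were detected throughout at least 1 group but not on every array.

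Of the 74 tested members 10 were lower in both stages, 5 were higher in both, 15 were called higher and 11 called lower in moderate cachexia alone, 4 were called higher in severe cachexia alone, and 29 were called in neither. None was called in opposite directions. A call at one stage without the other does not show that the stages differed, which was tested directly for each gene and is given further on. The counts depended on single mice. In severe cachexia 28 members were called without severe mouse 11, where 40.4% of all genes were called, and 11 without severe mouse 13 (23.9% of all genes) or severe mouse 16 (22.5%). In moderate cachexia 21 were called without moderate mouse 5 (25.5% of all genes) and 26 without moderate mouse 12 (30.3%).

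**Figure D1:**
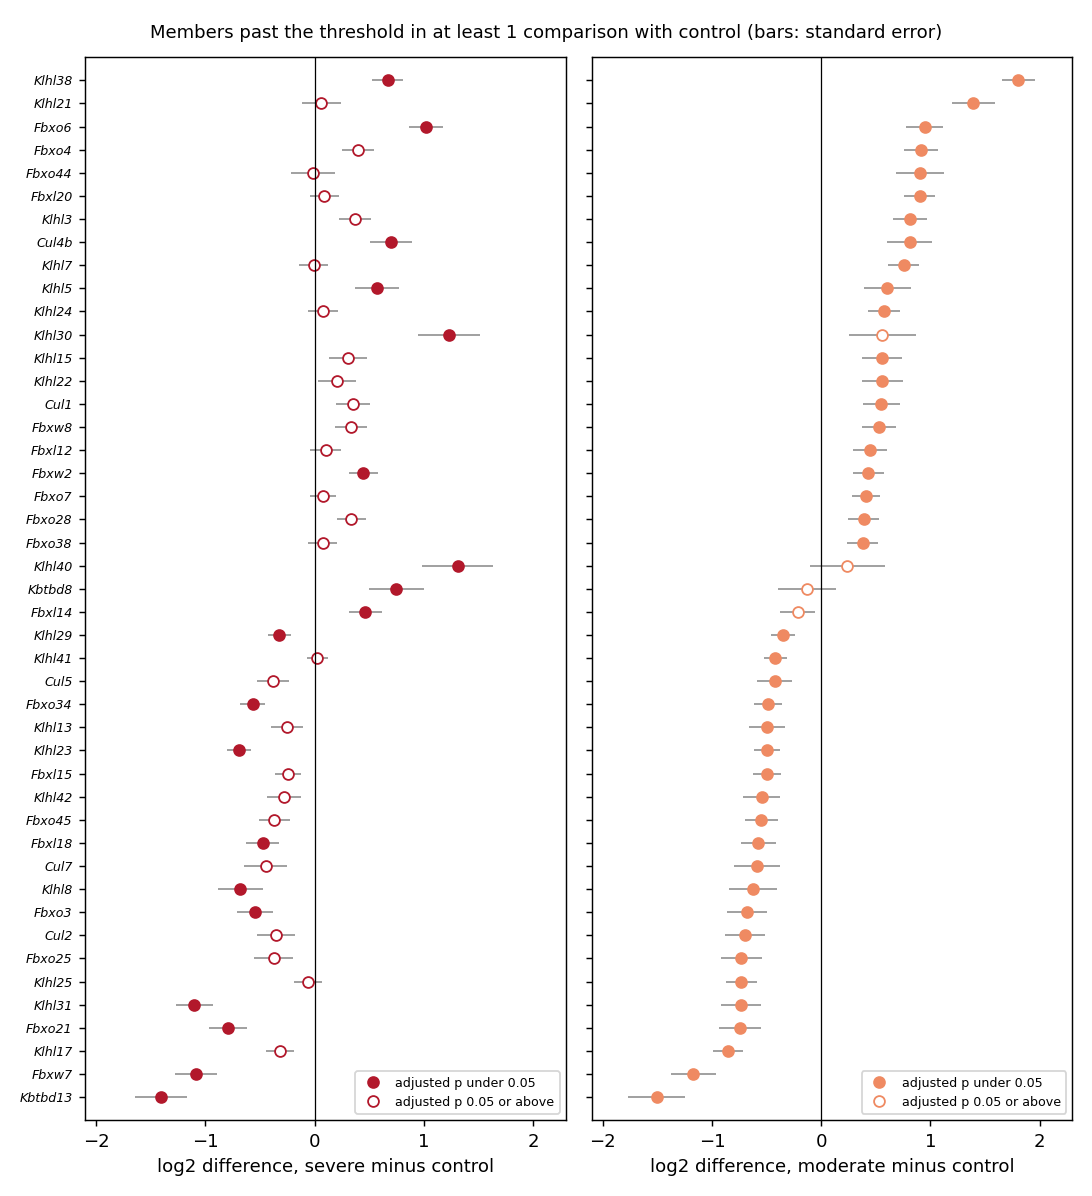
Log2 difference from control (horizontal axes, bars: standard error) of the 45 members called changed at either stage, severe minus control on the left and moderate minus control on the right, in the order of the moderate difference. Filled points are past an adjusted p of 0.05. Klhl38 and Klhl21 lead the moderate panel at 1.80 and 1.39, while Klhl40 and Klhl30 lead the severe panel at 1.31 and 1.23, and Kbtbd13 is lowest in both.

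The promoters of the members were read for the letters bound by 2 kinds of factor often studied in wasting muscle and inflammation. The RefSeq promoter table (GRCm38.p6, 250 bases before to 50 bases after a start site) held 122 promoters of 91 of the 116 genes. The FOXO letters GTAAACA, on either strand, were in 1 of these 122 promoters (0.82%) and in 3.65% of all 32851 promoters. The STAT letters TTCNNNGAA, which read the same way on both strands, were in 13 of the 122 (10.7%) and in 8.3% of all promoters. Promoters of 1 gene can overlap, and the 13 belonged to 9 genes. Among the 83 promoters of tested members 1 (1.2%) held the FOXO letters and 3 (3.61%) the STAT letters. Among 27 promoters of members called higher in moderate cachexia, 0 held the FOXO letters and 2 (7.41%) the STAT letters, and among 24 of members called lower there, 1 (4.17%) held each. The 4 windows printed here are the matches found among tested members, with the matching letters in capitals, 5′ to 3′ on the strand of the gene.
Klhl5: tcatttgtggTTCAGAGAAgggggtggtg
Fbxo44: actgtgaggcTTCGAAGAActgggctatg
Klhl13: tgacattgctTTCATGGAAtacctcaagc
Cul7: atggacaagaaGTAAACAgggatagaggg
They lie at chr5:65131013-65131041 on the plus strand, chr4:148159558-148159586 on the minus strand, chrX:23285844-23285872 on the minus strand and chr17:46650172-46650200 on the plus strand, in that order. The match begins 208 bases before the start site in Klhl5, 13 bases after it in Fbxo44, 55 bases before it in Klhl13 and 155 bases before it in Cul7. Klhl5 and Fbxo44 were called higher and Klhl13 and Cul7 lower in moderate cachexia, and a match of letters is only a description.

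All 8 cullins on the array were tested and detected on every array. Cul4b, which joins the linker Ddb1 and its WD40 receptors, was the only cullin called in severe cachexia. It was also higher in moderate cachexia. Its log2 levels were 7.45, 8.48, 7.76 and 8.13 in severe muscle, 8.28, 7.80 and 8.12 in moderate muscle, and 7.26, 7.34, 7.19 and 7.25 in control muscle, so every tumor-bearing mouse lay above every control. The differences were 0.69 ± 0.19 in severe (SE, adjusted p = 0.0153 by limma) and 0.81 ± 0.21 in moderate cachexia (adjusted p = 0.00837), and both stayed called under every alternative fitted with limma, which leaves out the t-test of the study's methods. The close relative Cul4a was not called, with 0.02 in severe (95% confidence interval -0.28 to 0.31) and 0.13 in moderate cachexia (-0.19 to 0.44) on its brightest probe. Of its other 2 passing probes 1 was higher in severe cachexia, at 0.43 (adjusted p = 0.046 over all passing probes), and the other gave 0.21.

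The other cullin called higher in moderate cachexia was Cul1, the scaffold of the F-box ligases. It stood at 11.02, 10.49 and 10.74 in moderate and 10.22, 10.41, 10.03 and 10.13 in control muscle, a difference of 0.55 ± 0.17 (adjusted p = 0.0217), and in severe muscle at 0.35 ± 0.16 over control (adjusted p = 0.106). Cul2, the scaffold of the von Hippel-Lindau ligase, was lower in moderate cachexia by a difference of -0.70 ± 0.19 (adjusted p = 0.00986), with 6.98, 7.63 and 7.49 in moderate and 7.94, 8.39, 7.84 and 8.09 in control mice. Neither gene's moderate and control levels overlapped on its brightest probe. A second Cul1 probe gave 0.40 in moderate cachexia and was not called (adjusted p = 0.167 by limma over all passing probes). The other passing Cul2 probes gave -0.30, -0.30 and -0.34 there, and none was called (adjusted p = 0.219, 0.144 and 0.109). Both calls depended on single mice: Cul1 was not called without control mouse 3 or moderate mouse 5 or 12 (adjusted p = 0.056 to 0.116), and Cul2 not without moderate mouse 5 (-0.50, adjusted p = 0.0614).

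Cul5, the scaffold for SOCS-box receptors, and Cul7, which pairs with Fbxw8, passed the threshold narrowly as lower in moderate cachexia. Cul5 differed by -0.43 ± 0.16 (adjusted p = 0.043) and Cul7 by -0.59 ± 0.21 (adjusted p = 0.0401). A second Cul5 probe gave -0.08, and on averaging the probes the difference of Cul5 was -0.25 (adjusted p = 0.123). The call of Cul5 was also lost with the deposited ratios, with no detection filter and with only the arrays compared, and that of Cul7 with no detection filter. Each call was lost on leaving out any one of 7 mice, at an adjusted p of up to 0.158 for Cul5 (without control mouse 1, 2 or 4, moderate mouse 5 or 12, or severe mouse 15 or 16) and up to 0.109 for Cul7 (without control mouse 1, 3 or 4, any moderate mouse, or severe mouse 15). For Cul7 severe mouse 11 stood at 7.87 and severe mice 13, 15 and 16 at 6.75, 7.23 and 7.02, against 7.76, 7.45, 7.75 and 7.70 in control mice, so that only mouse 11 was not below the controls. Without severe mouse 11 the severe difference of Cul7 was -0.67 (adjusted p = 0.00254), against -0.45 with it (adjusted p = 0.0934).

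Cul3, the scaffold of the kelch ligases, was not called, at 0.28 in severe (95% confidence interval 0.04 to 0.53, adjusted p = 0.0702) and 0.05 in moderate cachexia (-0.22 to 0.31). Without severe mouse 11 or control mouse 2 the severe difference was called, at 0.33 to 0.34 (adjusted p = 0.0428 to 0.048). A second Cul3 probe went the other way in severe cachexia, at -0.31 (adjusted p = 0.0499 over all passing probes), so its direction is not settled. Cul9 showed 0.13 in severe (-0.16 to 0.42) and 0.16 in moderate cachexia (-0.15 to 0.48). No cullin differed between severe and moderate muscle by the direct test.

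**Figure D2:**
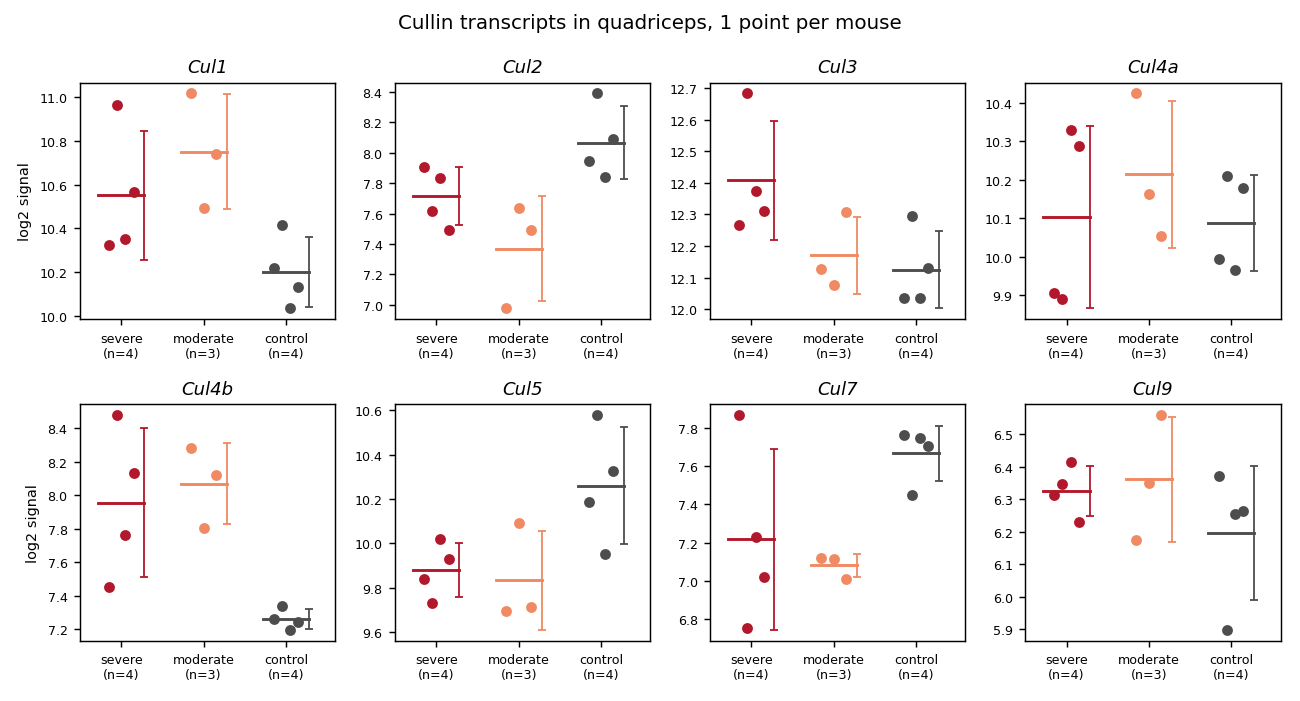
Log2 signal of the 8 cullins (vertical axes, scaled per gene), 1 point per mouse, with the group mean as a line and 1 SD as a bar, for severe, moderate and control quadriceps. All tumor-bearing mice lie above the controls for Cul4b, at 7.45 or more against 7.34 or less, and in Cul7 a single severe mouse at 7.87 stands among the controls.

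Kelch proteins of the Klhl and Kbtbd families numbered 43 genes, of which 32 were tested. In severe cachexia 4 of 27 tested Klhl genes were higher and 4 lower, and in moderate cachexia 8 were higher and 9 lower. Of 5 tested Kbtbd genes 1 was higher and 1 lower in severe cachexia, and 0 were higher and 1 lower in moderate cachexia. Of the Klhl genes 29.6% were called in severe and 63% in moderate cachexia, beside 33.3% and 41.1% of all tested genes. For the Kbtbd genes these shares were 40% and 20%, and no share was tested.

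Klhl38 showed the greatest difference of any member in moderate cachexia. Its levels were 9.02, 9.36, 9.40 and 9.23 in severe muscle, 10.28, 10.48 and 10.40 in moderate muscle, and 8.37, 8.59, 8.45 and 8.93 in control muscle, and the 3 groups did not overlap. The moderate level was 3.49-fold that of control (1.80 ± 0.15, adjusted p = 7.96e-06), and the severe level 1.59-fold (0.67 ± 0.14, adjusted p = 0.00359). Severe muscle was lower than moderate muscle by a difference of -1.14 ± 0.15 (adjusted p = 0.00136). All 3 calls held under every limma alternative.

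Klhl21, a Cul3 adaptor for Aurora B kinase during cell division in human cells, was called higher in moderate muscle alone. It stood at 11.57, 11.94, 12.25 and 11.86 in severe, 13.54, 13.06 and 13.11 in moderate, and 11.73, 11.47, 11.91 and 12.26 in control muscle. The severe and control levels interleaved, at a difference of 0.06 (95% confidence interval -0.33 to 0.45), whereas moderate muscle was 2.62-fold above control (1.39 ± 0.19, adjusted p = 0.000268). Severe muscle lay below moderate muscle by -1.33 ± 0.19 (adjusted p = 0.00278). Klhl7, a Cul3 adaptor mutated in a human retinal degeneration, had the same order: 10.22, 10.49, 10.70 and 10.24 in severe, 11.15, 11.02 and 11.36 in moderate, and 10.50, 10.54, 10.25 and 10.40 in control muscle. Its differences were -0.01 in severe (-0.29 to 0.27) and 0.75 ± 0.14 in moderate cachexia (adjusted p = 0.0015), and -0.76 ± 0.14 between severe and moderate muscle (adjusted p = 0.00826). The call between the stages was lost with the deposited ratios and a replicate block (adjusted p = 0.0611 by limma).

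Klhl3, which brings WNK kinases to Cul3 in the kidney, and Klhl24, an adaptor for keratin turnover in skin, were also called higher in moderate cachexia under every limma alternative. Klhl3 differed by 0.81 ± 0.16 (adjusted p = 0.00175), with 6.57 to 6.67 in the 3 moderate and 5.49 to 6.17 in the 4 control mice. Klhl24 differed by 0.57 ± 0.15 (adjusted p = 0.00852), with 11.60 to 11.81 in moderate and 10.97 to 11.22 in control mice, and both of its other probes were called the same way. In severe cachexia neither was called, at 0.37 and 0.07. Klhl3 was called there without control mouse 4 (0.48, adjusted p = 0.0247). For neither did the direct test between the stages pass (adjusted p = 0.102 for Klhl3 and 0.0596 for Klhl24, which passed without severe mouse 13 at 0.0314).

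Among the kelch genes known from the sarcomere, Klhl40 and Klhl41 behaved differently from each other. Klhl40, which stabilizes nebulin and leiomodin-3 in thin filaments, stood at 12.43, 11.96, 10.88 and 11.60 in severe muscle, 10.89, 9.86 and 11.19 in moderate muscle, and 10.34, 10.83, 10.39 and 10.07 in control muscle. All 4 severe mice lay above the controls, the lowest by a narrow margin, and the moderate mice straddled them. The severe difference was 1.31 ± 0.32 (2.47-fold, adjusted p = 0.00823) and the moderate difference 0.24 ± 0.35 (adjusted p = 0.609). The stages themselves did not pass the direct test at 1.07 ± 0.35 (adjusted p = 0.0799), and did without severe mouse 15 (1.35, adjusted p = 0.0273). Klhl30, a kelch gene of striated muscle with less known about it, was alike: 10.64, 11.25, 9.91 and 10.64 in severe, 10.06, 9.22 and 10.53 in moderate, and 9.36, 9.63, 9.37 and 9.15 in control muscle. It differed by 1.23 ± 0.28 in severe cachexia (adjusted p = 0.00589), every severe mouse above every control, and by 0.56 ± 0.31 in moderate cachexia (adjusted p = 0.159). The moderate difference passed without moderate mouse 9 (0.92, adjusted p = 0.0213). Mouse 9 was the lowest moderate mouse for both genes.

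Klhl41, a sarcomere kelch protein that also keeps nebulin from aggregating, was called lower in moderate cachexia and not in severe cachexia. Its levels were 13.38, 13.55, 13.25 and 13.43 in severe, 12.88, 12.98 and 13.01 in moderate, and 13.29, 13.57, 13.29 and 13.37 in control muscle. The 3 moderate mice were below all the others, at -0.42 ± 0.11 from control (adjusted p = 0.00703), while severe muscle differed from control by 0.02 (95% confidence interval -0.19 to 0.23). Severe muscle was higher than moderate muscle by 0.45 ± 0.11 (adjusted p = 0.0251), a call that was lost without moderate mouse 5 or 12 or severe mouse 13 or 16 (adjusted p = 0.0516 to 0.106).

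Kbtbd13, a kelch protein that binds thin-filament actin, was the most reduced member at both stages. It stood at 9.12, 8.22, 8.87 and 8.72 in severe, 8.07, 9.27 and 8.55 in moderate, and 10.39, 9.87, 10.09 and 10.20 in control muscle. No tumor-bearing mouse reached the control range. The differences were -1.41 ± 0.24 in severe (0.377-fold, adjusted p = 0.00115) and -1.51 ± 0.26 in moderate cachexia (0.352-fold, adjusted p = 0.000901), and its second probe gave -1.35 and -1.38. Klhl31, a kelch protein needed for sarcomere integrity in mice, stood at 10.11, 9.87, 10.08 and 9.63 in severe, 9.90, 10.61 and 10.36 in moderate, and 10.94, 11.30, 10.75 and 11.11 in control muscle. It was lower without overlap at both stages, by -1.10 ± 0.17 in severe (adjusted p = 0.000643) and -0.73 ± 0.18 in moderate cachexia (adjusted p = 0.00723). Its second probe gave -0.87 in severe but -0.12 in moderate cachexia, and the moderate call was lost on averaging the probes (-0.43, adjusted p = 0.058). Klhl34, another kelch gene of muscle, was not called at either stage, at 0.02 (-0.52 to 0.57) and -0.35 (-0.94 to 0.24).

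Klhl17 (actinfilin), an actin-binding kelch protein of neurons, and Klhl25, which recognizes the translation repressor 4E-BP1 in human cells, were called lower in moderate cachexia under every limma alternative. Klhl17 stood at 8.97, 8.66, 8.88 and 8.71 in severe, 8.17, 8.48 and 8.14 in moderate, and 9.16, 8.97, 9.33 and 9.02 in control muscle, a moderate difference of -0.86 ± 0.14 (adjusted p = 0.000696) and a severe difference of -0.31 ± 0.13 (adjusted p = 0.0776, and 0.0443 without severe mouse 11). Klhl25 stood at 6.03, 6.09, 5.77 and 5.90 in severe, 5.18, 5.24 and 5.42 in moderate, and 5.93, 6.29, 5.89 and 5.92 in control muscle, a moderate difference of -0.73 ± 0.14 (adjusted p = 0.00178) and a severe difference of -0.06 (-0.34 to 0.22). In both genes the 3 moderate mice lay below all others. Severe muscle was higher than moderate muscle by 0.54 ± 0.14 for Klhl17 (adjusted p = 0.0362) and 0.67 ± 0.14 for Klhl25 (adjusted p = 0.0159). The stage difference of Klhl25 was lost without moderate mouse 5 (adjusted p = 0.0737). That of Klhl17 was lost without any one of 7 mice (control 1 or 4, moderate 5 or 12, severe 11, 15 or 16), at an adjusted p of up to 0.143.

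**Figure D3:**
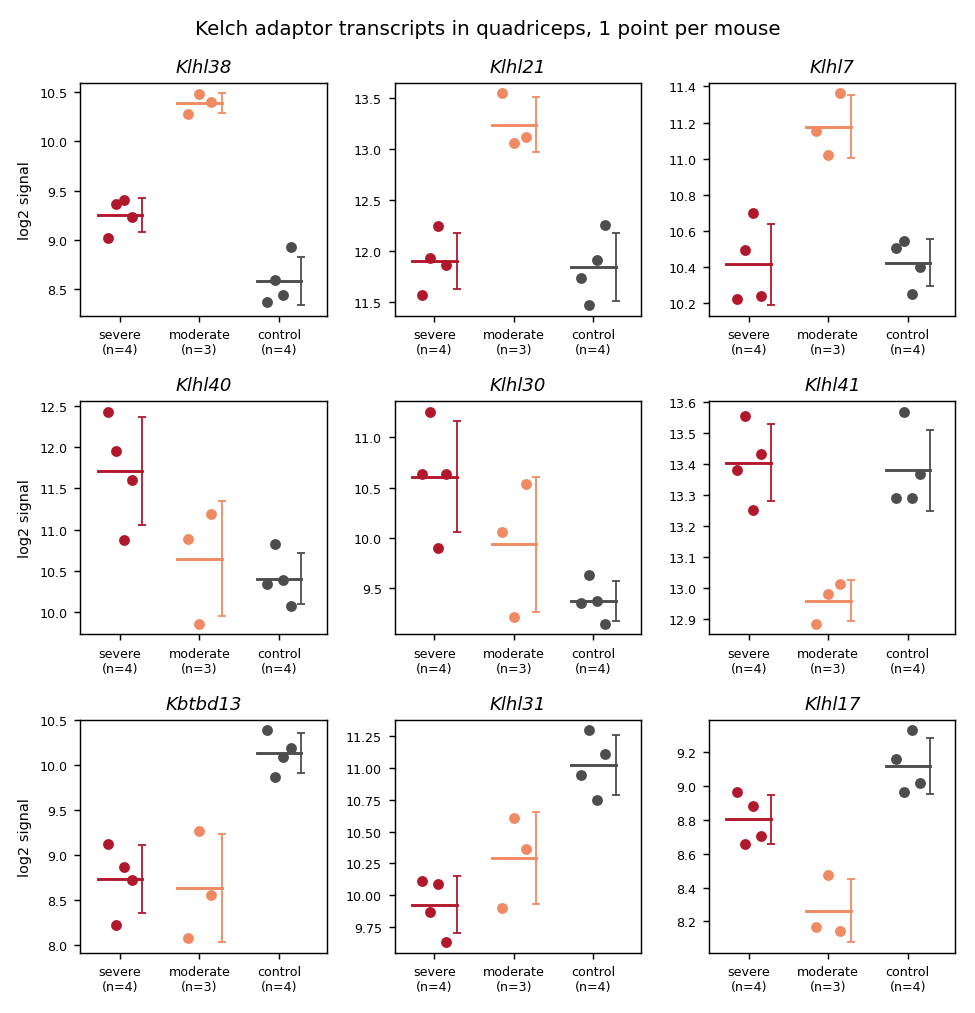
Log2 signal of 9 kelch genes (vertical axes, scaled per gene), 1 point per mouse, with the group mean as a line and 1 SD as a bar. Moderate muscle stands above both other groups for Klhl38, Klhl21 and Klhl7 and below both for Klhl41 and Klhl17, severe muscle is highest for Klhl40 and Klhl30, and both stages are below control for Kbtbd13 and Klhl31.

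Klhl23 and Klhl29 passed the detection filter only through the control group, where they are high, so their calls as lower at both stages were favoured by the filter and no p is given for them. Klhl23 was detected in 1 of 4 severe mice, at levels of 4.59 to 4.90, in 2 of 3 moderate mice, at 4.82 to 5.12, and in all 4 control mice, at 5.43 to 5.48. Klhl29 was detected in 1 of 4 severe mice, in 0 of 3 moderate mice and in all 4 control mice. It was at least 1.09-fold lower in moderate than in control muscle. Both genes are among the 19 and 41 members called but not among those detected on all arrays. Further calls in moderate cachexia were of genes not detected on every array. Of the Klhl genes called there, 7 of the 8 higher and 5 of the 9 lower were detected on all arrays.

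Klhl5 and Klhl8 moved at both stages with less stable calls. Klhl5 was higher by 0.57 ± 0.20 in severe (adjusted p = 0.0418) and 0.61 ± 0.21 in moderate cachexia (adjusted p = 0.0377), with 6.56 to 6.80 in severe, 7.25, 6.10 and 6.85 in moderate and 5.94 to 6.25 in control mice. Its moderate difference was 0.35 without moderate mouse 5 (adjusted p = 0.214) and 0.92 without moderate mouse 9 (adjusted p = 0.00108). Either call was also lost without any single control mouse or without moderate mouse 12, and the severe call without severe mouse 13, 15 or 16, at an adjusted p of up to 0.107 in severe cachexia. Klhl8 was lower by -0.68 ± 0.20 in severe (adjusted p = 0.0223) and -0.63 ± 0.22 in moderate cachexia (adjusted p = 0.0366). Both calls were lost without control mouse 2 or 4, and without severe mouse 13 or 16 or moderate mouse 5 or 12 (adjusted p up to 0.0685 in severe and 0.175 in moderate cachexia).

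Klhl9 and Klhl13 form a Cul3 ligase for Aurora B in human cells. Klhl9 was not called, at -0.11 in severe (-0.47 to 0.24) and 0.30 in moderate cachexia (-0.09 to 0.69). Klhl13 was near the detection limit and lower in moderate cachexia at -0.50 ± 0.16 (adjusted p = 0.0261), lost without control mouse 1 or 3 or moderate mouse 5 or 9 (adjusted p = 0.0615 to 0.0969). Kbtbd8, an adaptor of neural crest formation, was higher in severe cachexia at 0.75 ± 0.25 (adjusted p = 0.0333), with 5.46, 6.71, 6.05 and 6.74 in severe and 5.21, 5.81, 5.33 and 5.63 in control mice. The levels of severe mouse 11 and the controls overlapped, and the call was lost without control mouse 1, 3 or 4 or severe mouse 13 or 16 (adjusted p = 0.053 to 0.109). Kbtbd2, which brings the p85 subunit of phosphoinositide 3-kinase to Cul3, was not called against control at either stage. It gave -0.24 in severe (adjusted p = 0.224) and 0.40 in moderate cachexia (adjusted p = 0.0617). The moderate difference was called on averaging its probes (0.45, adjusted p = 0.0176) and without control mouse 2 (0.49, adjusted p = 0.0307). Directly between the stages Kbtbd2 was lower in severe than in moderate muscle, at -0.64 ± 0.16 (adjusted p = 0.0322). That call was lost without any single moderate mouse or severe mouse 16 (adjusted p = 0.0588 to 0.103).

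F-box proteins numbered 65 genes, of which 34 were tested. Of 18 tested Fbxo genes 1 was higher and 3 lower in severe cachexia, and 6 were higher and 5 lower in moderate cachexia. Of 10 tested Fbxl genes, whose substrate domain is built of leucine-rich repeats, 1 was higher and 1 lower in severe cachexia and 2 were higher and 2 lower in moderate cachexia. Of 6 tested Fbxw genes, whose substrate domain is a WD40 propeller, 1 was higher and 1 lower in severe cachexia and 2 were higher and 1 lower in moderate cachexia.

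The excluded Fbxo30, Fbxo31, Fbxo32 and Fbxo40 are not counted here. Among the members, the most raised F-box gene in both stages by brightest probe was Fbxo6, which recognizes sugar chains on misfolded glycoproteins. It stood at 11.96, 12.34, 12.32 and 12.41 in severe, 12.30, 11.98 and 12.28 in moderate, and 11.37, 10.76, 11.43 and 11.38 in control muscle. All 7 tumor-bearing mice lay above the 4 controls. The levels were 2.03-fold those of control in severe (1.02 ± 0.16, adjusted p = 0.000645) and 1.93-fold in moderate cachexia (0.95 ± 0.17, adjusted p = 0.00118), and the stages differed by 0.07 (95% confidence interval -0.30 to 0.44). Its relative Fbxo44 was called in moderate muscle alone, at 5.50, 5.77, 6.04 and 6.11 in severe, 7.14, 6.90 and 6.28 in moderate, and 5.77, 5.55, 6.12 and 6.03 in control muscle. The moderate difference was 0.90 ± 0.22 (adjusted p = 0.00604) and the severe difference -0.01 (-0.45 to 0.42). Severe muscle lay below moderate muscle by -0.92 ± 0.22 (adjusted p = 0.0269), which was lost without moderate mouse 5 or 9 (adjusted p = 0.0632 and 0.132).

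Fbxo4, an adaptor for cyclin D1 in human cells, and Fbxl20, which acts on a synaptic vesicle protein in mouse brain, were called higher in moderate cachexia under every limma alternative. Fbxo4 stood at 8.53, 8.28, 8.29 and 8.20 in severe, 8.96, 8.54 and 9.02 in moderate, and 8.07, 7.78, 8.14 and 7.71 in control muscle, and the groups did not overlap. Its differences were 0.91 ± 0.16 in moderate (adjusted p = 0.000987) and 0.40 ± 0.15 in severe cachexia (adjusted p = 0.0528). The severe difference passed without control mouse 3 or moderate mouse 9 (adjusted p = 0.0363 to 0.045). Fbxl20 stood at 6.64, 6.72, 6.66 and 6.66 in severe, 7.27, 7.41 and 7.76 in moderate, and 6.68, 6.45, 6.71 and 6.49 in control muscle. It differed from control by 0.90 ± 0.14 in moderate (adjusted p = 0.000534) and 0.09 in severe cachexia (-0.19 to 0.37), and between severe and moderate muscle by -0.81 ± 0.14 (adjusted p = 0.00631).

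Fbxw7, which marks cyclin E, Myc, Jun and Notch for degradation, was the F-box member with the greatest decrease. It stood at 7.63, 7.71, 7.67 and 7.31 in severe, 7.09, 8.11 and 7.29 in moderate, and 8.73, 8.62, 8.58 and 8.72 in control muscle. Every tumor-bearing mouse was below every control, and moderate mouse 9 was nearest to them. The differences were -1.08 ± 0.19 in severe (0.472-fold, adjusted p = 0.00134) and -1.17 ± 0.21 in moderate cachexia (0.444-fold, adjusted p = 0.000998). A second, dimmer Fbxw7 probe showed no such change, at -0.05 and 0.12, and the mean of the probes gave -0.57 and -0.53, both still called.

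Fbxo21, Fbxo34 and Fbxo3 were lower at both stages. Fbxo21, which turns over the differentiation inhibitor EID1 in human cells, stood at 7.95, 7.22, 7.60 and 7.29 in severe, 7.54, 7.85 and 7.32 in moderate, and 8.16, 8.54, 8.33 and 8.21 in control muscle, differences of -0.80 ± 0.18 (adjusted p = 0.005) and -0.74 ± 0.19 (adjusted p = 0.00821) with no overlap. Fbxo34 was at 7.54 to 7.67 in severe, 7.48 to 7.81 in moderate and 8.03 to 8.29 in control mice, with -0.57 ± 0.12 in severe (adjusted p = 0.00356) and -0.48 ± 0.13 in moderate cachexia (adjusted p = 0.00945), and its moderate call missed without moderate mouse 5 (-0.39, adjusted p = 0.0556). Fbxo3, which acts on Fbxl2 in human cells, showed -0.55 in severe and -0.68 in moderate cachexia. All 3 probes of each of Fbxo34 and Fbxo3 that passed detection were called lower in both stages. The calls of Fbxo3 were lost without control mouse 2 or 4 or severe mouse 13 or 16 in severe cachexia and without moderate mouse 12 in moderate cachexia (adjusted p = 0.0562 to 0.0809).

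Fbxl15, which controls the ligase Smurf1 in human cells, was lower in moderate cachexia at -0.50 ± 0.13 (adjusted p = 0.00922), with 6.32 to 6.42 in moderate and 6.76 to 6.97 in control mice. Fbxo25 was also lower there at -0.73 ± 0.19 (adjusted p = 0.00912), lost without moderate mouse 5 (-0.53, adjusted p = 0.0576), and its severe difference of -0.37 was called without severe mouse 11 (-0.49, adjusted p = 0.0385). Fbxl14, an adaptor for Snail in human cells, was higher in severe muscle, at 8.91, 9.43, 8.88 and 9.34 in severe, 8.56, 8.21 and 8.62 in moderate, and 8.69, 8.55, 8.76 and 8.71 in control mice. The severe mice lay above both other groups, by 0.46 ± 0.15 over control (adjusted p = 0.0309) and 0.68 ± 0.16 over moderate muscle (adjusted p = 0.0276). The first call was lost without control mouse 1, 2 or 4 or severe mouse 13 or 16, and the second without moderate mouse 5 or 9 or severe mouse 13 or 16, at an adjusted p of up to 0.0996.

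Fbxw2 was higher at both stages on its brightest probe, by 0.44 ± 0.13 in severe (adjusted p = 0.0229) and 0.43 ± 0.15 in moderate cachexia (adjusted p = 0.0305). A further passing probe was called the same way, at 0.45 and 0.42. The remaining passing probes were not called, at 0.05 and 0.20 in severe and 0.14 and 0.19 in moderate cachexia. Fbxw8, the partner of Cul7, was higher in moderate cachexia by 0.53 ± 0.16 (adjusted p = 0.0171), whereas Cul7 was lower there. The calls of Fbxw2 were lost without control mouse 2 and severe mouse 13 or 16 in severe cachexia and without control mouse 2 or 4 or moderate mouse 5 or 12 in moderate cachexia (adjusted p up to 0.112), and that of Fbxw8 without moderate mouse 12 (0.39, adjusted p = 0.089). Fbxl18 was lower at both stages on its brightest probe, at -0.48 in severe and -0.58 in moderate cachexia, but its other 2 probes gave 0.03 and 0.09 in severe cachexia. Its severe call was lost without control mouse 2 or 4 or severe mouse 13 or 16, its moderate call without moderate mouse 5, and both on averaging the probes (-0.12 and -0.32). The other 8 members called in moderate cachexia were Fbxl12, Fbxo28, Fbxo38, Fbxo7, Klhl15 and Klhl22, higher by 0.38 to 0.56, and Fbxo45 and Klhl42, both lower by a difference of -0.55.

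Fbxo9, Fbxl4, Fbxl5 and Fbxo33 were not called at either stage. Fbxo9, which in human cells limits mTOR signalling through Tel2 and Tti1, gave -0.48 in severe (-0.88 to -0.09, adjusted p = 0.0591) and 0.05 in moderate cachexia (-0.38 to 0.48), and the severe difference passed without control mouse 1 or 3 (adjusted p = 0.0465 and 0.0349) and on averaging its probes (-0.44, adjusted p = 0.0222). Fbxl4, a mitochondrial protein, gave 0.11 and 0.12, and Fbxl5, the iron sensor that removes iron regulatory protein, gave -0.19 (-0.41 to 0.04) and 0.06 (-0.18 to 0.31). Fbxo33 gave 0.16 (-0.24 to 0.57) and 0.46 (0.02 to 0.90). Across the 29 members called in neither stage, differences ran from -0.48 to 0.31 in severe and from -0.47 to 0.47 in moderate cachexia.

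The 10 members that differed directly between the stages were read from their brightest probes. Those lower in severe muscle were Klhl21, Klhl38, Fbxo44, Fbxl20, Klhl7 and Kbtbd2, and those higher were Fbxl14, Klhl25, Klhl17 and Klhl41. Of these Klhl21, Klhl38, Fbxl20, Fbxo44 and Klhl7 were called higher in moderate cachexia than in control muscle, and Klhl17, Klhl25 and Klhl41 called lower. In severe muscle the differences from control of these 8 genes ran from -0.31 (Klhl17) to 0.67 (Klhl38), and only Klhl38 among them was called there. Only 4 of the 10 were called without moderate mouse 5, where 1.92% of all genes were called, and 6 without severe mouse 16 (2.77% of all genes). Klhl21, Klhl38 and Fbxl20 held under every limma alternative, whereas the t-test of the study's methods left 0 members after Benjamini-Hochberg in this comparison, and 7 of all 10134 genes.

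**Figure D4:**
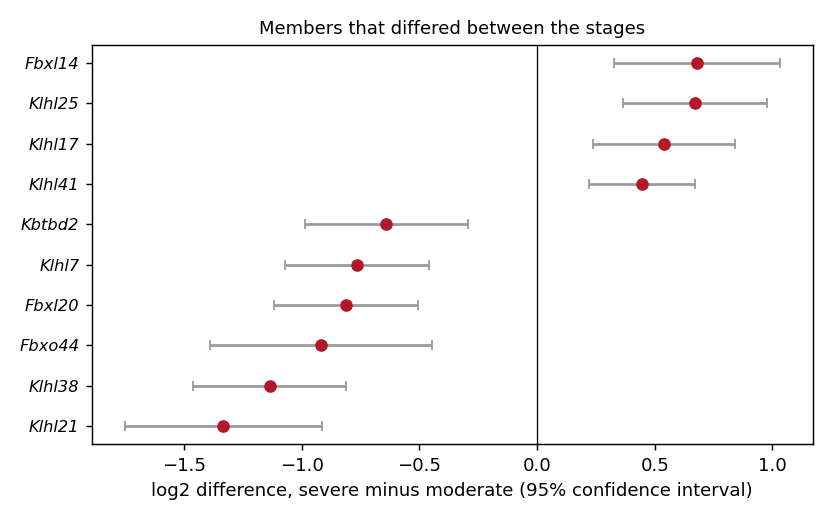
Log2 difference between severe and moderate muscle (horizontal axis, severe minus moderate, bars: 95% confidence interval) of the 10 members past an adjusted p of 0.05 in that comparison. Klhl21 lies farthest below 0 at -1.33 and Fbxl14 farthest above at 0.68.

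Of the 74 tested members 33 had more than 1 probe that passed detection. Among called members with several probes, all other probes were called the same way for 4 of 10 in severe cachexia (Fbxo3, Fbxo34, Kbtbd13 and Klhl31) and for 6 of 20 in moderate cachexia (Fbxo3, Fbxo34, Fbxo38, Fbxo4, Kbtbd13 and Klhl24). A probe of opposite sign was present for 1 of 10 (Fbxl18) in severe and 1 of 20 (Fbxw7) in moderate cachexia. Some members not called on their brightest probe had another probe that was called. These were 4 in severe (Cul3, Cul4a, Fbxo4 and Fbxo9) and 2 in moderate cachexia (Kbtbd2 and Kbtbd4). Between the stages they were 4 (Fbxo4, Fbxo9, Kbtbd8 and Klhl31). Over all passing probes of the array 31% were called in severe and 38.3% in moderate cachexia. The 42 members not tested included Klhl20, Fbxl21, Fbxl22 and Fbxw11, and for 33 of the 42 the brightest probe was detected on no array, so these data say nothing of their changes.

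The machinery that joins or drives cullin ligases was read from the same fit, as lists of genes chosen for their roles, and the genes named from them here were chosen after their values were seen. The counts of all these lists, here and in the following paragraphs, stand beside the shares of all tested genes. Those were 15.6% higher and 17.8% lower in severe cachexia, and 18.9% higher and 22.2% lower in moderate cachexia. No list was tested against them. Of 5 tested ring and linker subunits 1 was higher and 2 lower in severe cachexia, and 1 was higher and 3 lower in moderate cachexia, with median differences of -0.30 and -0.33. Eloc (elongin C), the linker of Cul2 and Cul5, stood at 8.59, 7.82, 8.49 and 8.11 in severe, 8.26, 8.91 and 8.29 in moderate, and 9.19, 9.75, 9.19 and 9.72 in control muscle, at -1.21 ± 0.21 (adjusted p = 0.00131) and -0.97 ± 0.23 (adjusted p = 0.00499). Skp1, the linker of F-box proteins, was lower by -0.46 and -0.47, and Ddb1, the linker of Cul4, was higher by 0.55 and 0.46. Both calls of Eloc and the severe call of Ddb1 held under every limma alternative. Either call of Skp1 was lost without control mouse 1, 2 or 4, moderate mouse 12 or severe mouse 16, the severe call also without severe mouse 13 and the moderate call without moderate mouse 5 (adjusted p up to 0.127 in severe and 0.162 in moderate cachexia). Both were also lost with the deposited ratios and with no detection filter, and the moderate call with no intensity trend. The moderate call of Ddb1 was lost without control mouse 1 or moderate mouse 5 or 12 (adjusted p up to 0.146).

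Of 20 tested genes of NEDD8 attachment, removal and exchange 4 were higher and 1 lower in severe cachexia, and 0 were higher and 5 lower in moderate cachexia, with median differences of 0.00 and -0.11. The COP9 subunits Cops2, Cops4, Cops5 and Cops7b were the 4 higher ones in severe muscle, at 0.34 to 0.58. Of these Cops4 kept its severe call under every limma alternative. Cops2 lost it without severe mouse 16 (adjusted p = 0.0509), Cops7b without control mouse 2 or severe mouse 16 (up to 0.0694) and Cops5 without control mouse 1, 3 or 4 or severe mouse 13, 15 or 16 (up to 0.109). On averaging probes Cops7b gave 0.25 (adjusted p = 0.0644) and Cops5 0.23, neither called, and Cops5 was not called with the deposited ratios or with no detection filter either. Cops2 was called in moderate cachexia as well without severe mouse 11 or 13 (0.39, adjusted p = 0.0349 and 0.0407). The COP9 subunits Gps1, Cops3, Cops6, Cops7a, Cops8 and Cops9 were not called in severe cachexia, at -0.37 (Cops7a) to 0.12 (Cops3). Cops7a (-0.45, adjusted p = 0.0347) and Gps1 (-0.36, adjusted p = 0.0163) were among the 5 genes lower in moderate cachexia. Dcun1d2, a co-enzyme for cullin neddylation, was lower at both stages, at -0.81 ± 0.17 in severe and -1.23 ± 0.18 in moderate cachexia. Among 7 E2 enzymes 0 were higher and 1 lower in severe cachexia and 1 was higher and 3 lower in moderate cachexia, with Ube2r2 lower in both (-0.75 and -0.68) and medians of -0.26 and -0.39 over the list. The calls of Dcun1d2 and Ube2r2 held under every limma alternative.

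Substrate receptors of cullin ligases that carry other symbols numbered 17 tested genes, of which 4 were higher and 2 lower in severe cachexia and 5 were higher and 3 lower in moderate cachexia, with median differences of -0.03 and 0.15. Rhobtb1, a BTB protein of Cul3, was lower by -1.71 ± 0.15 in severe and -1.35 ± 0.16 in moderate cachexia, with 9.38 to 9.67 in severe, 9.40 to 10.07 in moderate and 11.10 to 11.37 in control mice. Keap1, the kelch adaptor for Nrf2, was higher by 0.62 and 0.64, and Enc1, a kelch protein first known from neurons, higher by 0.81 and 1.07. All calls of Rhobtb1, Keap1 and Enc1 against control held under every limma alternative. Of 13 tested genes for proteins that members handle, 2 were higher and 3 lower in severe cachexia and 4 were higher and 2 lower in moderate cachexia, with median differences of 0.12 and 0.09. Lmod3, the leiomodin that Klhl40 stabilizes, stood at 10.25, 9.60, 10.12 and 9.55 in severe, 8.60, 9.34 and 9.16 in moderate, and 10.36 to 10.42 in control muscle, at -0.51 (adjusted p = 0.047) and -1.35 (adjusted p = 0.000338). Its severe call was lost without any single control mouse, moderate mouse 12 or severe mouse 13 or 16 (adjusted p up to 0.147). That call was also lost under 6 of 12 other alternatives, among them the deposited ratios and no detection filter (adjusted p up to 0.116). The moderate call held under every limma alternative. Between severe and moderate muscle Lmod3 differed by 0.84 (adjusted p = 0.0237), lost without moderate mouse 5 or severe mouse 15 (adjusted p = 0.117 and 0.0502). This stage call was also lost with only the arrays compared and with the deposited ratios and a replicate block (adjusted p = 0.0877 to 0.0951). Nfe2l2, which encodes Nrf2, was higher by 0.61 and 1.06, and both calls held under every limma alternative. Ulk1 had the greatest difference from control in this list, at 2.14 in moderate cachexia (adjusted p = 3.06e-05). It gave 0.12 in severe cachexia (adjusted p = 0.675) and -2.02 between severe and moderate muscle (adjusted p = 0.000407). The alternatives were not read for Ulk1. Protein levels were not measured.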

How the data were processed

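Quadriceps RNA of 11 mice was hybridized to BeadChips of 45281 probes. The deposited signal intensities had been background-subtracted by the authors (28.5% of values were below 0) and shared 1 distribution across arrays, with sorted values within 0.319 of each other. The deposited detection p-value of each probe came from the scanner software. The deposited ratios of single samples equalled the authors' signals, floored at 1, divided by the control median (100% matched within a group at a relative tolerance of 0.001), and were used as an alternative.

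Signals were background-corrected with neqc (offset 16), with negative controls inferred from the detection p-values, quantile-normalized and log2-transformed in limma 3.58.1 (R 4.3.3). Correction of already subtracted and normalized intensities leaves the size of differences of dim probes dependent on the offset. A probe passed if all arrays of any group had a detection p under 0.01 for it, which left 18837, and each array detected 18626 to 20006 probes. Of all probes 34885 carried 1 gene symbol, 18 several and 10378 none, by the annotation of the platform. A gene was read from its brightest passing probe. Group means of all 11 arrays were fitted with lmFit and eBayes (intensity trend), and p-values were adjusted by Benjamini-Hochberg over 10134 genes. The procedure was tested on simulated data of 10134 genes. Of 100 genes set 1 log2 unit from control, 88 were recovered in severe and 79 in moderate cachexia. Of 100 set at 0.5, 25 and 22 were recovered. In the measured data 33.3% of genes were called in severe and 41.1% in moderate cachexia. Recovery with so large a share of changed genes was not tested.

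The members and gene lists were chosen with earlier results of these data known. Members named were up to 12 with the smallest adjusted p in each direction of severe and of moderate against control, every member called between the stages, the cullins, and members known in muscle or the clock. The titles number the 4 severe, 3 moderate and 4 control arrays as replicates, and their small number sets the precision. Alternatives tried were the background correction and its offset, median scaling, the deposited ratios with and without a replicate block, the detection filter, the choice of probe, the arrays fitted, no intensity trend, the methods' t-test, and leaving out each mouse. Which BeadChip held which array was not given in the sources used here.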

Additional observations from a re-analysis of the deposited data

Results flagged for a closer look

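In groups of 4 mice, 1 mouse stood far from the other 3 for 5 of 47 named members and for 2 of 14 other ligase genes examined, over 122 groups. Chance gives such a mouse in about 1 of 20 groups. The gap to the nearest mouse took up 0.832 of the group's range for Fbxl4, where severe mouse 13 was highest at 9.84 against 9.34 for the next. It was 0.898 for Klhl13, where severe mouse 13 was highest at 5.40 against 5.06, and 0.909 for Fbxo6, where control mouse 2 was lowest at 10.76 against 11.37. It was 0.944 for Klhl23, where control mouse 2 was lowest by a small margin (5.43 against 5.47), and 0.897 for Klhl25, where control mouse 2 was highest at 6.29 against 5.93. Rhobtb1 had severe mouse 15 highest (0.856 of the range, 9.67 against 9.42) and control mouse 1 highest (0.959, 11.37 against 11.12). Enc1 had severe mouse 15 lowest (0.863, 6.38 against 6.64). The calls of Fbxo6 against control and of Klhl25 in moderate cachexia held without any single mouse.

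By the direct test between severe and moderate muscle, the severe and moderate differences from control themselves differed for 10 members. They also did for Cops7b and Lmod3 among the 14 other ligase genes examined. Of the listed genes outside those 14, Ulk1 (-2.02), Cry2 (-1.10), Cdkn1b (-0.777) and Gps1 (0.376) passed the same test. Severe muscle was higher for Fbxl14 (0.68), Klhl25 (0.67), Klhl17 (0.54) and Klhl41 (0.446), and for Cops7b (0.501) and Lmod3 (0.844). It was lower for Klhl21 (-1.33), Klhl38 (-1.14), Fbxo44 (-0.918), Fbxl20 (-0.811), Klhl7 (-0.764) and Kbtbd2 (-0.639). The call of Cops7b was lost on leaving out each of 9 mice, at an adjusted p of up to 0.116 by limma.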

How the results depend on the processing

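No called difference of a named member, or of the 14 other ligase genes examined, changed direction under any alternative fitted with limma. Some small uncalled differences changed sign. The counts of members called moved as follows. In severe against control 19 members were called, 17 to 20 under the changes of background correction, scaling, filter, probe and arrays fitted, and 11 to 28 on leaving out 1 mouse. In moderate against control 41 were called, 31 to 41 under those changes and 21 to 43 on leaving out 1 mouse. Between severe and moderate muscle 10 were called, 9 to 12 under most of those changes, 5 with no detection filter, 5 with only the arrays compared, and 4 to 11 on leaving out 1 mouse. The methods' t-test, with a minimum fold of 2 and unadjusted p-values under 0.05, gave 6, 4 and 2 members in these comparisons. After Benjamini-Hochberg it gave 15, 25 and 0, where limma gave 10 for the last and 19 members had an unadjusted p under 0.05 by the t-test. Over all 10134 genes it gave 2361, 3264 and 7 after Benjamini-Hochberg. The deposited ratios called 19, 39 and 9 members without a replicate block, and 14, 31 and 5 with one. Over 10 pairs of same-numbered samples the deviations from the group means correlated at -0.348 to 0.126, and 2 of 10 matched best with their own number. With so few arrays in a group these values cannot decide whether the replicate numbers pair the mice. Of named members called, 11 of 19 in severe cachexia, 18 of 33 in moderate cachexia and 3 of 10 between the stages stayed called under every fit by limma that held them. Klhl23 is counted among them at both stages against control, but it was in only 21 of these fits, where Klhl38 was in 23. Its calls were favoured by the detection filter, so its place there is no sign of a firm call. Among named members, averaging probes ended the calls of Fbxl18 in severe and of Cul5, Fbxl18 and Klhl31 in moderate cachexia. Having no detection filter ended those of Fbxl18, Kbtbd8 and Klhl5 in severe cachexia, of Cul5, Cul7, Fbxw2, Klhl13, Klhl5 and Klhl8 in moderate cachexia, and of Fbxo44, Kbtbd2, Klhl17, Klhl25 and Klhl41 between the stages. Fitting only the arrays compared ended those of Kbtbd8 in severe cachexia, Cul5 in moderate cachexia, and Fbxl14, Fbxo44, Kbtbd2, Klhl17 and Klhl41 between the stages. The deposited ratios ended those of Cul5 in moderate cachexia and Klhl41 between the stages. With a replicate block they ended those of Fbxl14, Fbxo3, Fbxw2, Klhl5 and Klhl8 in severe cachexia. In moderate cachexia the block ended those of Cul1, Cul5, Fbxo3, Fbxw2, Klhl5 and Klhl8. Between the stages it ended those of Fbxl14, Fbxo44, Kbtbd2, Klhl17, Klhl41 and Klhl7. Near background the size of a difference depended on the correction: Klhl23 in severe cachexia differed by -0.69 at an offset of 16, -0.35 at an offset of 50 and -1.37 with no background correction.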
